A study of Homo sapiens with 8 samples.

Results

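The respiratory chain and the ATP synthase were followed through 103 genes, which were taken from the 54261 genes of the count table by symbol. Of these, 13 are the protein-coding genes of the mitochondrial genome (ND1 to ND6, ND4L, COX1 to COX3, ATP6, ATP8 and CYTB). Each is called a mitochondrial messenger here, although it was counted as a gene. The other 90 are nuclear genes. Their symbols begin with NDUFA, NDUFB, NDUFC, NDUFS, NDUFV, UQCR, COX4 to COX8 or ATP5, or equal SDHA to SDHD or CYC1. The nuclear genes comprised 38 of complex I, 4 of complex II, 10 of complex III, 17 of complex IV and 19 of complex V, plus NDUFA4 and NDUFA4L2, which carry complex I symbols and are associated with complex IV. The choice by symbol also let in 6 genes that are not subunits in the usual sense, namely the readthrough genes ATP5J2-PTCD1 and NDUFC2-KCTD14, the near-identical copies UQCRHL and ATP5L2, and ATP5S and ATP5SL, which are named after the ATP synthase. Reads of such copies, and their originals UQCRH and ATP5L, are uncertain in their assignment.

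Total RNA of 8 libraries had been sequenced after removal of ribosomal RNA, 1 library for each cell line and condition, at passage 5 per the labels. NCM460 and HIEC6 were labelled as normal human intestinal epithelial lines and were untreated (n = 2 lines), DLD1, HCT116 and HCT8 are colorectal carcinoma (CRC) lines and were sequenced untreated (n = 3 lines) and with hypoxia treatment (n = 3 lines), whose oxygen level and duration are not given in the sources used here. The study's methods name DMEM with fetal bovine serum for NCM460, HIEC6, DLD1 and HCT8. They do not list HCT116 there or describe the hypoxia cultures. The replicates of a group were different cell lines, so the SDs given here are between lines. Standard errors come from the fits, which share information on spread between genes. The sample descriptions give each library 1 or 2 codes. Those of the untreated and hypoxia libraries of the CRC lines have no code in common, so whatever the codes stand for and the treatment cannot be told apart. The library labelled NCM460 shares its first code with HIEC6 and the untreated CRC lines and its second with DLD1 and HCT116 under hypoxia.

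The respiratory chain sits in the inner mitochondrial membrane. Complex I (NADH dehydrogenase) and complex II (succinate dehydrogenase) pass electrons to ubiquinone, complex III (the cytochrome bc1 complex) passes them to cytochrome c and complex IV (cytochrome c oxidase) to oxygen, and complex V (the ATP synthase) uses the proton gradient so built. All complexes but the second mix subunits from both genomes. The mitochondrial messengers are cut from long transcripts of the whole circle, whereas each nuclear subunit gene has its own promoter. In low oxygen the transcription factor HIF-1 is known to raise glycolytic genes and to exchange or restrain parts of the chain in some tissues.

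The mitochondrial genes lie so close together that some share bases, which matters for counts per gene. The sequences below are the places where neighbouring genes overlap or touch, read from the GRCh37 reference on the plus strand.
ND4L and ND4, chrM:10748-10778, with the 7 shared bases in capitals: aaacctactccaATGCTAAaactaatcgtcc
ATP8 and ATP6, chrM:8515-8584, with the 46 shared bases in capitals: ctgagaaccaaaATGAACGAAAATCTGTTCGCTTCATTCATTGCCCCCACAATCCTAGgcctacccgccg
ND5 and ND6, chrM:14119-14178, with the last 30 bases of ND5 in lower case and the first 30 of the ND6 interval in capitals: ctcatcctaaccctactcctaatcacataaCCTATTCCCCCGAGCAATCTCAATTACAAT
ND6 (chrM:14149-14673, 525 bases) is the single protein-coding gene of the circle on the minus strand, and the capitals above are therefore the reverse complement of the end of its messenger. Whether counting used strand is not given in the sources used here, so that reads of the opposite-strand precursor over ND6 cannot be told apart from ND6 itself. Reads in the shared bases of ATP8 and ATP6, or of ND4L and ND4, cannot be assigned to either gene with certainty.

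Before the comparisons, 3 libraries stood apart. Across genes, which are not independent replicates, log2(CPM + 1) of the library labelled NCM460 correlated at 0.989 with HCT116 and at 0.876 with HIEC6, the other library of its group (CPM are counts scaled to a library total of 1000000). HIEC6 held 1413 CPM of 8 mesenchymal markers in sum, against 12.7 to 174 CPM in the other 7 libraries. All 8 libraries held 4551 CPM or more of 8 epithelial markers. In HIEC6 that sum of 8019 CPM lay mostly in KRT8 (4290 CPM) and KRT18 (3725 CPM). EPCAM (0.176 CPM), CDH1 (3.03), KRT19 (0.987) and CDX2 (0.0529) were each lower in HIEC6 than in any other library. Leukocyte and endothelial markers summed to at most 20.7 CPM each. The HCT116 hypoxia library had a TMM factor (the composition correction of edgeR) of 0.771, against 0.988 for untreated HCT116, and plain CPM placed the median gene of that pair at a log2 difference of -0.32. Log2 differences between the libraries of a line were therefore taken after TMM normalization, and levels are given in plain CPM. In bulk RNA, fewer mitochondria or cells and less RNA in each cannot be told apart.

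The mitochondrial messengers dominated the set. Per kilobase of transcript, mean CPM over the 8 libraries was highest for COX1, the catalytic subunit of complex IV, at 4946 CPM per kb, followed by COX3 at 3979 and COX2 at 2987. ND4 of complex I stood at 2517 CPM per kb, ATP6 at 2018 and CYTB of complex III at 1242. The lowest count per kilobase among the mitochondrial genes was that of ATP8, at 329 CPM per kb. ATP8 is 207 bases long and shares 46 of them with ATP6, so this value need not be the level of its messenger. The highest nuclear gene was ATP5B, the catalytic beta subunit of the ATP synthase, at 509 CPM per kb, above ATP8 and below the other 12 mitochondrial messengers. Next came COX4I1 (323 CPM per kb), the ubiquitous form of subunit 4 of complex IV, and NDUFA13 of complex I (283 CPM per kb). The medians over the nuclear genes with any count were 57.7 CPM per kb for complex I, 81.0 for complex II, 45.8 for complex III, 119 for complex IV and 69.6 for complex V. NDUFB6 had no transcript length in the annotation used and was left out of this ranking.

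Several isoforms known from other tissues were at or near 0. COX4I2 (the lung form of subunit 4), COX6A2 (the heart and muscle form of subunit 6A), COX7B2 and COX8C had 0 counts in all 8 libraries, where 3 counts correspond to 0.0523 to 0.0659 CPM. COX7A1, the muscle form of subunit 7A, had 1 count in all. Their common partners were present in all libraries. COX4I1 lay between 197 and 315 CPM, COX6A1 between 89.9 and 166 CPM, COX7A2 between 57.4 and 94.0 CPM and COX8A between 103 and 203 CPM. COX6B2, the testis form, separated the libraries. It had 1.81 CPM in the library labelled NCM460, 1.53 in HCT116 and 1.97 in HCT116 under hypoxia, and 0 to 0.483 CPM in the other 5. NDUFA4L2, a form of NDUFA4 known as a hypoxia-induced gene in other cells, stayed between 0.374 and 1.34 CPM. Its hypoxia libraries had 0.784 (DLD1), 0.668 (HCT116) and 0.374 CPM (HCT8), where the untreated libraries had 0.762, 1.34 and 1.31 CPM, so that HCT116 and HCT8 were lower and DLD1 was level. NDUFA3 (at most 8 counts) and ATP5E (0.0659 to 0.934 CPM) were listed far below the other subunits of their complexes.

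Counts of all 13 mitochondrial messengers made up 1.93% of the library in DLD1, 2.71% in HCT116 and 2.39% in HCT8. Under hypoxia they made up 2.11%, 4.36% and 1.65%. The groups overlapped, since HCT116 went up, HCT8 went down and DLD1 moved little. The mean was 2.34% ± 0.391 (SD, n = 3 lines) without treatment and 2.71% ± 1.45 (SD, n = 3) under hypoxia, and an exact two-sided permutation test of the log2 shares gave p = 0.9, where 0.1 is the smallest value that 3 libraries against 3 allow. Single libraries decided the sign of this difference, which was 0.09 on the log2 scale, -0.32 without the HCT116 hypoxia library and -0.04 without untreated DLD1.

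The 90 nuclear genes together made up 0.776% of counts in DLD1, 0.805% in HCT116 and 0.744% in HCT8. Under hypoxia the shares were 0.740%, 0.565% and 0.640%, each below all 3 untreated values on these plain totals. The mean log2 difference was -0.27, and the two-sided exact permutation test gave the smallest possible p = 0.1. Over TMM-scaled totals the groups overlapped, with 0.755%, 0.815% and 0.656% without treatment and 0.737%, 0.733% and 0.569% under hypoxia. The mean log2 difference was then -0.13 (exact permutation p = 0.5), with -0.04 (DLD1), -0.15 (HCT116) and -0.21 (HCT8) within the lines. The counts behind the shares were large, and the 95% Wilson intervals were at most 0.00538 percentage points to either side for the mitochondrial share and 0.00248 for the nuclear share, which covers counting error only.

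The ratio of mitochondrial to nuclear subunit counts needs no library total. Without treatment DLD1 had 2.49, HCT116 had 3.37 and HCT8 had 3.21, and under hypoxia they had 2.85, 7.72 and 2.58. The ratio was higher by 0.19 (DLD1) and 1.20 (HCT116) on the log2 scale, and HCT8 differed by -0.32 (two-sided exact permutation p = 0.8 over 3 libraries against 3).

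**Figure D1:**
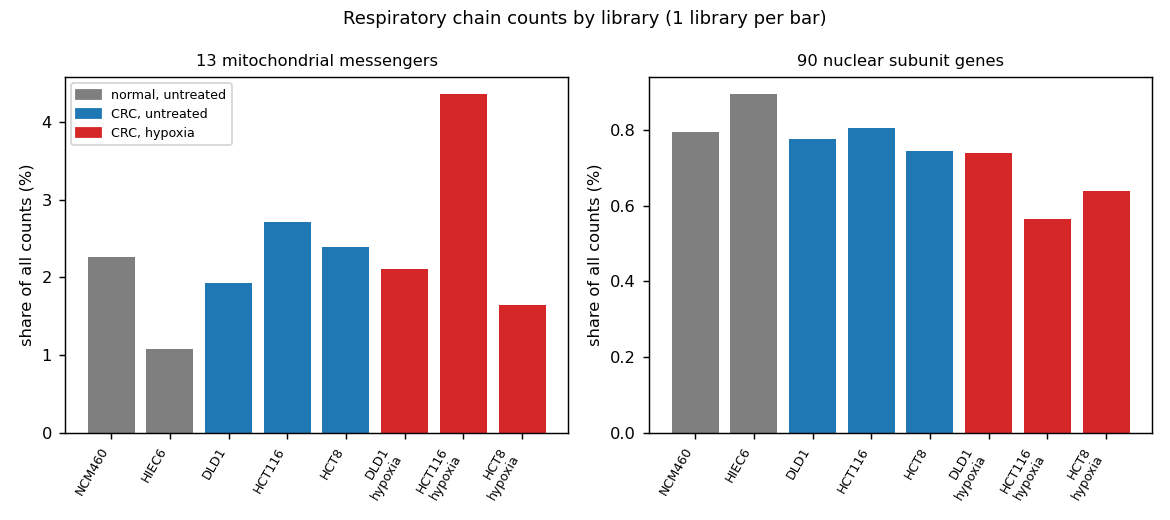
Share of all counts (%) taken by the 13 mitochondrial messengers (left) and the 90 nuclear subunit genes (right), with 1 bar per library colored by group. The mitochondrial share reached 4.36% in HCT116 under hypoxia and 1.08% in HIEC6, while the 3 hypoxia libraries held the 3 lowest nuclear shares, an order that TMM-scaled totals did not keep.

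Gene by gene, 13 mitochondrial and 82 nuclear members passed the filter on low counts (10 counts or more in 2 or more of the 6 CRC libraries). The 8 nuclear members left out were both readthrough genes, COX4I2, COX6A2, COX7A1, COX7B2, COX8C and NDUFA3. With edgeR's quasi-likelihood test, 0 of the 95 members passed 0.05 after Benjamini-Hochberg adjustment, as did 0% of all 21045 genes tested. At an unadjusted p under 0.05 stood 2 nuclear members (2.44%), beside 2.88% of all genes.

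Each hypoxia library has an untreated partner from its own cell line, and a fit that takes the line as a block was set beside the first. It called 200 genes (0.95% of those tested) and again 0 members. Unadjusted p-values under 0.05 were reached by 15 of 82 nuclear members (18.3%), against 18.5% of all genes. Of these 15, 14 were lower (17.1%, against 8.58% of all genes) and 1, UQCRB, was higher (1.22%, against 9.88%). DESeq2 with the same block called 1666 genes (7.92%), and 711 of them were lower under hypoxia (3.38%). Among the members it called 3 of 82 nuclear genes (3.66%) and 1 of 13 mitochondrial messengers, and all 4 were lower: ND6, ATP5G1, NDUFB6 and NDUFS1.

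Hypoxia itself was visible in the same libraries. Of 9 genes known to respond to low oxygen, 9 were higher in all 3 lines, and 5 of them passed the threshold in the edgeR fit with the block. Among these, LDHA rose by 2.59 on the log2 scale (adjusted p = 0.00607, edgeR with the block) and EGLN3, an oxygen sensor and HIF-1 target, by 3.66 (adjusted p = 0.00081).

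Within the mitochondrial genome the messengers did not move as 1 block. In HCT116, 10 of the 13 were higher under hypoxia and 3 were lower, with a median log2 difference of 0.99. In HCT8, 13 of 13 were lower, with a median of -0.74. In DLD1 the differences stayed between -0.37 and 0.44, with a median of 0.07. The 3 messengers that were lower in HCT116 were ND6, ND1 and ND2. On plain CPM, ND3 (-0.17) and ATP8 (-0.03) were lower there as well, and the HCT116 median was 0.63.

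COX1 had 6768 CPM in DLD1, 7710 in HCT116 and 8904 in HCT8, and 7447, 13838 and 7286 CPM under hypoxia. ND4 had 2875, 3352 and 3275 CPM, and 2957, 7823 and 2884 CPM under hypoxia. Both were higher in HCT116, by 1.20 (COX1) and 1.58 (ND4) on the log2 scale. In the other lines the differences were small and of either sign, at 0.17 (DLD1) and -0.28 (HCT8) for COX1 and at 0.07 and -0.17 for ND4. ND5 was higher in HCT116 (1.59) and DLD1 (0.44) and level in HCT8 (-0.01).

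CYTB, the single mitochondrial subunit of complex III, had 1338, 1986 and 1566 CPM in the untreated lines, in the order DLD1, HCT116 and HCT8. Under hypoxia it had 1229, 2791 and 439 CPM. The log2 difference was 0.85 in HCT116 and -1.82 in HCT8. ATP6, the proton channel subunit of the ATP synthase, moved by 1.02 in HCT116 and by -0.84 in HCT8. COX2 and COX3 moved by 1.44 and 0.99 in HCT116 and by -0.57 and -0.69 in HCT8.

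**Figure D2:**
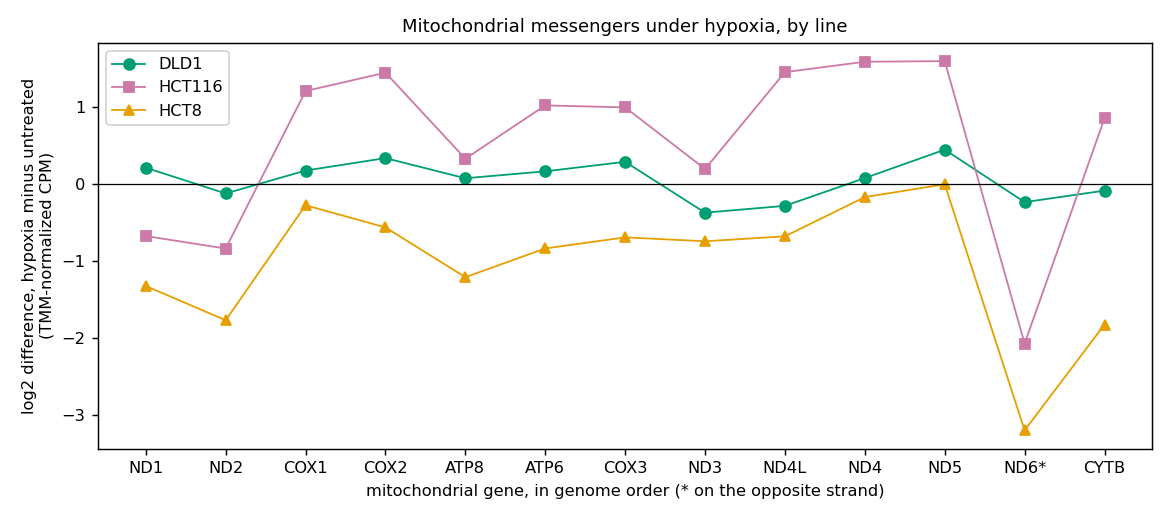
Log2 difference of TMM-normalized CPM, hypoxia minus untreated, for the 13 mitochondrial messengers in genome order, with 1 line of points per cell line. HCT116 lies above 0 except at ND1, ND2 and ND6, HCT8 lies at or below 0 throughout, and ND6 is the lowest point of both.

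ND6 was the member with the largest difference. It had 259 CPM in DLD1, 1307 in HCT116 and 415 in HCT8, and 215, 243 and 45.0 CPM under hypoxia. All 3 lines were lower, by log2 differences of -0.24, -2.07 and -3.19. All 3 hypoxia values were below all 3 untreated values in CPM, and after TMM normalization the groups overlapped. The log2 fold change was -1.85 (standard error 0.50) in edgeR with the block, with an adjusted p = 0.117. DESeq2 with the block gave an adjusted p = 0.00432, and over the 17 fits run on all the genes the adjusted p of ND6 lay between 0.00432 and 1. With the DLD1 pair left out, a choice made after seeing the data, edgeR with the block gave a log2 fold change of -2.63 and an adjusted p = 0.0142.

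As a share of the mitochondrial messengers, which does not depend on the library total, ND6 made up 1.34% (DLD1), 4.82% (HCT116) and 1.74% (HCT8). The shares under hypoxia were 1.02%, 0.557% and 0.273%. The groups did not overlap, and the exact permutation test over 3 libraries against 3 gave its smallest possible p = 0.1. That test does not use the pairing of the libraries by line. Next to the adjoining ND5, ND6 had 0.207 (DLD1), 1.41 (HCT116) and 0.383 (HCT8) times the counts without treatment, and 0.129, 0.112 and 0.0421 times under hypoxia.

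ND1 and ND2, the first genes of the circle after the ribosomal RNAs and both core subunits of complex I, took 9.94%, 9.89% and 8.40% of the mitochondrial messengers in the untreated lines. Under hypoxia they took 9.27% in DLD1, 2.86% in HCT116 and 4.24% in HCT8. The DLD1 share was inside the range of the untreated lines and the other 2 were below it (exact permutation p = 0.2). ND4 had 2.87, 2.28 and 3.01 times the counts of ND1 in the untreated lines and 2.61, 10.9 and 6.68 times under hypoxia, so that the composition moved the same way in HCT116 and HCT8 although their totals moved apart. Widest Wilson intervals were 0.0694 percentage points to either side for the ND6 share and 0.0844 for that of ND1 and ND2.

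**Figure D3:**
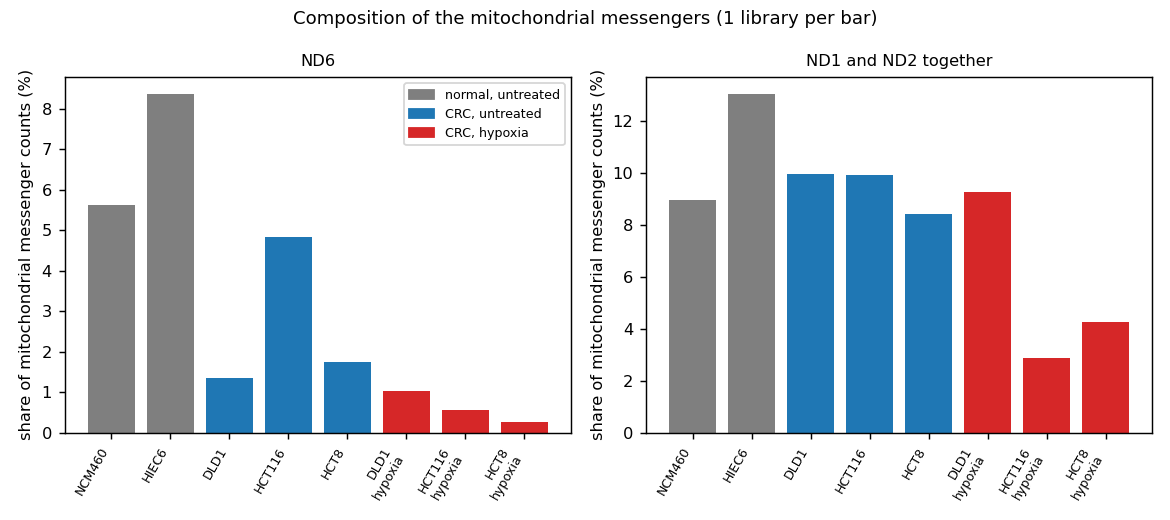
Share (%) of the mitochondrial messenger counts taken by ND6 (left) and by ND1 and ND2 together (right), with 1 bar per library colored by group. ND6 fills 4.82% or more in HCT116, the library labelled NCM460 and HIEC6 and at most 1.74% elsewhere, and ND1 and ND2 reach only 2.86% and 4.24% in HCT116 and HCT8 under hypoxia.

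Nuclear copies of mitochondrial genes, whose reads can be confused with the originals, took 0.0276% to 0.098% of counts over all 8 libraries, far below the mitochondrial share itself. The mitochondrial ribosomal RNAs had less than 1 CPM in each of the 6 CRC libraries.

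The nuclear subunits leaned downward under hypoxia. The median log2 difference of the 82 tested stood at -0.05 (DLD1), -0.26 (HCT116) and -0.22 (HCT8), beside 0.01, 0.00 and 0.01 for all genes tested. In all 3 lines 36 of 82 (43.9%) were lower, against 21.2% of all genes, and 9 of 82 (11%) were higher, against 22.4%. On plain CPM, 44 of 82 were lower in all 3 lines, against 26.4% of all genes. The members share the same 6 libraries, so these shares are a description and carry no test. The summed mesenchymal markers were higher under hypoxia in each line, from 12.7 to 94.4 CPM in DLD1, from 43.8 to 174 CPM in HCT116 and from 16.6 to 25.99 CPM in HCT8. Of the 7 markers tested, 0 were lower in DLD1, 0 in HCT116 and 4 in HCT8, where their median log2 difference was -0.12. FN1 (fibronectin) among them rose by 2.80 on the log2 scale (adjusted p = 0.0295, edgeR with the block). In HCT8 FN1 had only 0.266 CPM untreated and 0.461 CPM under hypoxia (14 and 21 counts). The part of these markers in the values of the nuclear members was not tested.

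By complex, 18 of 36 nuclear members of complex I, 3 of 4 of complex II, 4 of 10 of complex III, 2 of 12 of complex IV and 8 of 18 of complex V were lower in all 3 lines. Complex IV stood nearest to the background, with medians of -0.05, 0.03 and -0.07 in DLD1, HCT116 and HCT8. Complex I had medians of -0.06, -0.36 and -0.30.

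**Figure D4:**
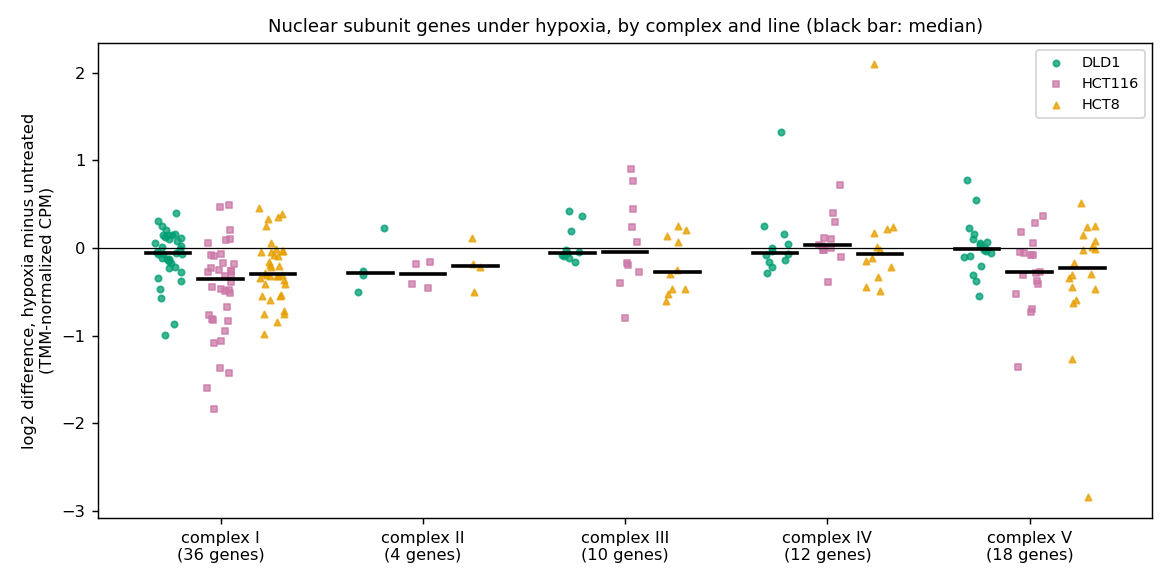
Log2 difference of TMM-normalized CPM, hypoxia minus untreated, for the tested nuclear members of each complex, with 1 point per gene and line and black bars for medians. A pair with 0 counts on either side is not drawn, and NDUFA4 and NDUFA4L2 are left out. The medians of complexes I, II, III and V lie below 0 in all 3 lines, by as little as 0.01 for complex V in DLD1, and that of complex IV lies above 0 in HCT116.

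NDUFB6, an accessory subunit of the membrane arm of complex I, had 30.2 CPM in DLD1, 24.5 in HCT116 and 31.7 in HCT8, and 19.9, 11.2 and 18.7 CPM under hypoxia. The groups did not overlap, and the 3 lines differed by similar amounts, with log2 differences of -0.57, -0.77 and -0.75. The log2 fold change in edgeR with the block was -0.69 (standard error 0.20, adjusted p = 0.129), and DESeq2 with the block gave an adjusted p = 0.0149 (0.0149 to 1 over 17 fits).

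ATP5G1, now named ATP5MC1, encodes subunit c, which forms the rotating ring of the ATP synthase. It had 41.8, 57.8 and 27.7 CPM in DLD1, HCT116 and HCT8, and 33.1, 17.7 and 11.5 CPM under hypoxia. Each line was lower, and the groups overlapped because hypoxic DLD1 lay above untreated HCT8. The log2 fold change with the block was -0.97 (standard error 0.25) with an adjusted p = 0.109 in edgeR and 0.0158 in DESeq2 (0.0158 to 1 over 17 fits). Of the other genes for the same protein, ATP5G3 was lower in each line as well, with log2 differences of -0.10, -0.73 and -0.63. ATP5G2 had -0.02, 0.37 and -0.35. Over the 3 genes, ATP5G2 and ATP5G3 held most of the counts in every CRC library.

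NDUFS1, the largest subunit of complex I and a carrier of iron-sulfur clusters, was low for a core subunit, at 3.63, 6.37 and 4.65 CPM without treatment and 1.95, 1.64 and 2.57 CPM under hypoxia. The groups did not overlap. With the block, its log2 fold change was -1.10 (standard error 0.36) and its adjusted p = 0.164 in edgeR, against 0.0389 in DESeq2 (0.0389 to 1 over 17 fits).

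The promoters of these 3 genes are shown because they carry the nuclear calls of DESeq2. Each is the 300 bases around the start in RefSeq (GRCh38.p14), most of them upstream, 5′ to 3′ on the strand of the gene. Capitals mark matches, on either strand, to the NRF1 motif, to the GABP motif CCGGAAGT and to the HIF core written as ACGTG or GCGTG.
ATP5G1, chr17:48892537-48892836, plus strand: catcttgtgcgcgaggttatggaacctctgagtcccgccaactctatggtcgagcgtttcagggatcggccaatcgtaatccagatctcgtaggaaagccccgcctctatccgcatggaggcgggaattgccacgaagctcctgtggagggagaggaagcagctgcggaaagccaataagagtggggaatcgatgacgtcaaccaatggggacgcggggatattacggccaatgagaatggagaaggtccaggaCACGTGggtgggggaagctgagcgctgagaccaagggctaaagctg
NDUFB6, chr9:32573110-32573409, minus strand: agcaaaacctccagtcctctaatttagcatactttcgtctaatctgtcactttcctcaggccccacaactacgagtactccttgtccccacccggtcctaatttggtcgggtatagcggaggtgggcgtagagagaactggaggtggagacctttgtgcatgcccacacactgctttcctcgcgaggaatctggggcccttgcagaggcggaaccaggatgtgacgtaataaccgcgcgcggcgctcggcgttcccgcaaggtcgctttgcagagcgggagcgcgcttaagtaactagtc
NDUFS1, chr2:206159395-206159694, minus strand: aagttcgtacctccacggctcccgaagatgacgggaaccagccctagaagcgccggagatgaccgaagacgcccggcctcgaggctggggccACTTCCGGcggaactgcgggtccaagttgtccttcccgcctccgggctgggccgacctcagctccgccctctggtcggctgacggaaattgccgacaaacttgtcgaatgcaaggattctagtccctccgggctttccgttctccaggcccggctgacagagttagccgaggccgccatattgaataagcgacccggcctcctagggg
ATP5G1 held the palindrome CACGTG, which reads as the HIF core on both strands and counts as 2 overlapping matches. NDUFS1 held 1 GABP motif, and NDUFB6 held no match to the letters searched. A promoter was found for 69 of the 90 nuclear members. The NRF1 motif stood in 23.2% of these, against 6.28% of all 27305 promoters and 8.58% of 15843 promoters of protein-coding genes. The GABP motif stood in 13% of them, against 4.44% and 6.19%, and the HIF core in 58%, against 48.4% and 55.9%. Of the 26 promoters of members that were lower in all 3 lines, 57.7% held the HIF core, as did 60.5% of the 38 of the other tested members. The GABP motif stood in 23.1% (6 of 26) and 7.89% (3 of 38) of the same groups, and the NRF1 motif in 15.4% (4 of 26) and 26.3% (10 of 38). These shares rest on few promoters and carry no test.

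**Figure D5:**
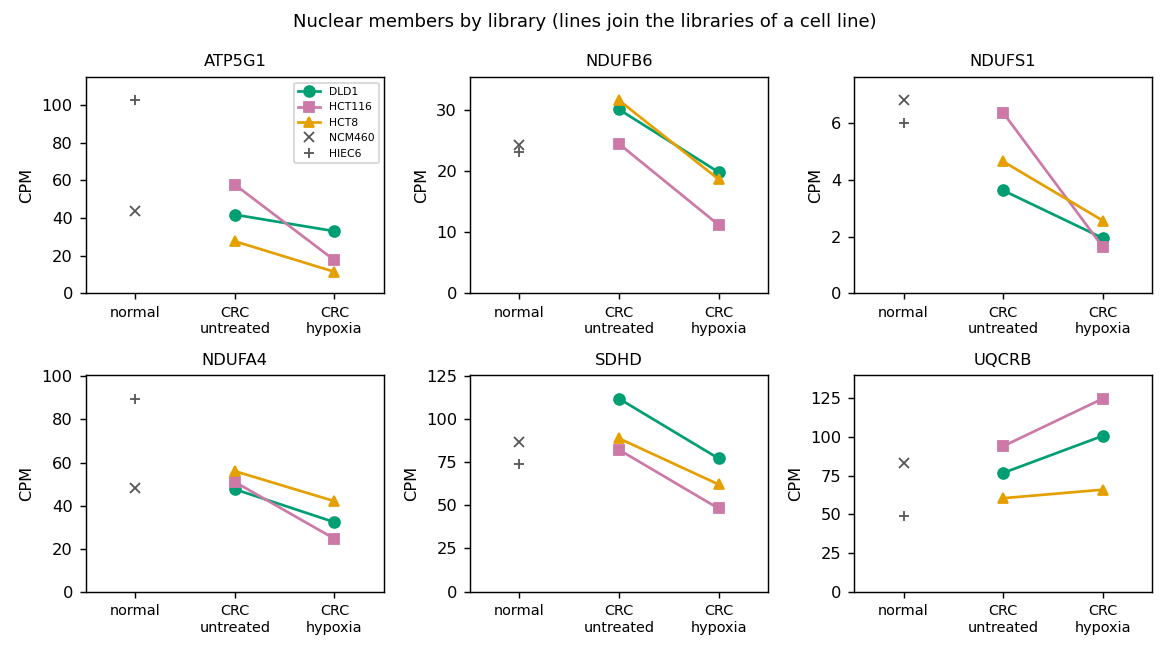
CPM of 6 nuclear members in the 8 libraries, with lines joining the untreated and hypoxia libraries of a CRC line and crosses for the lines labelled normal. ATP5G1, NDUFB6, NDUFS1, NDUFA4 and SDHD are lower under hypoxia in all 3 lines and UQCRB is higher in all 3.

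After TMM normalization, 6 of 82 nuclear members (7.32%) had all hypoxia libraries below all untreated ones, against 4.76% of all genes, namely NDUFA4, NDUFA6, NDUFB6, NDUFS1, NDUFV3 and SDHD. On plain CPM the count was 11 of 82 (13.4%), against 6.44% of all genes. No member lay above in this way (0 of 82, against 4.27%). NDUFA4, associated with complex IV, had 47.6, 51.0 and 56.0 CPM and then 32.3, 24.6 and 42.0 CPM (edgeR with the block, log2 fold change -0.54, adjusted p = 0.174). NDUFA6 was low in the CRC libraries, at 2.87, 1.82 and 2.01 CPM and then 1.41, 0.397 and 1.19 CPM, the lowest of which was 22 counts. NDUFV3 differed mainly in HCT116, by -1.37, and by -0.02 in DLD1.

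Complex II is encoded by the nucleus alone. SDHD, which with SDHC anchors the complex in the membrane, had 112, 82.1 and 88.7 CPM and under hypoxia 77.1, 48.2 and 62.1 CPM. Its log2 differences of -0.50, -0.41 and -0.50 were the most even among the members that did not overlap, and edgeR with the block gave an adjusted p = 0.189. SDHB (-0.26, -0.16 and -0.18) was lower in each line by less. SDHC (-0.31, -0.45 and -0.22) was also lower in each line, by less than SDHD in DLD1 and HCT8 and by slightly more in HCT116. SDHA, the flavoprotein, was not, with 0.22, -0.18 and 0.11.

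Among nuclear members with a mean log2 CPM above 1, the largest positive fold changes in edgeR without the block were those of UQCRB, UQCRHL, NDUFB4, ATP5J, ATP5J2 and UQCRC1. COX6B2, below that level, had a fold change of 0.87 there and was higher in each line (1.33, 0.72 and 2.10 from DLD1 to HCT8), on 4, 80 and 6 counts without treatment. UQCRB, a small subunit of complex III, had 76.8, 94.1 and 60.5 CPM and under hypoxia 101, 125 and 66.0 CPM, with log2 differences of 0.43, 0.77 and 0.14 (edgeR with the block, log2 fold change 0.44, adjusted p = 0.26). UQCRC1, a core protein of the same complex, had 0.20, 0.45 and 0.07. CYC1, which carries the cytochrome c1 heme, went the other way, with -0.16, -0.40 and -0.61. ATP5J2 was higher in DLD1 (0.78) and lower in HCT116 (-0.53). Large negative fold changes above the same level also belonged to NDUFB2 (-0.13, -1.43 and -0.98) and NDUFC2 (-0.37, -1.08 and -0.55), both accessory subunits of complex I.

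The machinery that builds and serves the chain was described by the same measures, with the block. Of 54 assembly factors, 48 had a fold change below 0 (47.8% of all genes were) and 6 above, with a median of -0.47 against 0.03 for all genes. Of these, 1 passed the threshold in the lower direction, as did 0.209% of all genes. That gene, BCS1L, which inserts the Rieske protein into complex III, had 27.6, 28.2 and 46.8 CPM and fell to 14.4, 7.09 and 17.8 CPM (log2 fold change -1.30, adjusted p = 0.0443 in edgeR with the block). NDUFAF4, a complex I assembly factor, had log2 differences of -0.77, -1.54 and -1.65 (adjusted p = 0.0622), and COX20, which serves COX2 maturation, had 0.54, 0.76 and 1.01 (adjusted p = 0.0938).

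Of 26 genes for the expression of the mitochondrial genome, 26 were below 0, with a median of -0.50, and 0 passed the threshold, while 13 were lower at an unadjusted p under 0.05, where 8.58% of all genes were. TFAM, which packs and transcribes mitochondrial DNA, had -0.20, -1.16 and -0.89 (adjusted p = 0.145), and POLRMT, the mitochondrial RNA polymerase, had 0.05, 0.14 and -0.30 (adjusted p = 0.939). TFB2M, its initiation factor, had -0.65, -0.66 and -1.13. The 75 tested proteins of the mitochondrial ribosome had a median of -0.34, with 66 below 0 and 0 past the threshold, and the 13 enzymes of the citric acid cycle had a median of -0.13, with 8 below 0. The 9 regulators of mitochondrial content had a median of -0.07, and 0 passed the threshold.

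Of 11 tested genes listed for hypoxia and mitochondria, 5 passed the threshold, and all 5 rose, where 0.741% of all genes passed in that direction. The other 6 had a fold change below 0. Of these, 3 had an unadjusted p under 0.05 in edgeR with the block, where 8.58% of all genes were lower at that level. They were CHCHD4 (-0.78), ISCU (-0.76) and CHCHD2 (-0.51). PDK1, the kinase that closes the entry of pyruvate into the citric acid cycle, rose from 24.5 to 36.8 CPM in the untreated lines to 141 to 386 CPM (adjusted p = 0.0163, edgeR with the block). PDK3 rose by 1.38 and MXI1 by 1.94. BNIP3L, a receptor for the removal of mitochondria, rose by 2.93, and its relative BNIP3 rose by 3.75, a value that rested on HCT116 (18.5 to 192 CPM), since DLD1 and HCT8 had at most 0.0871 CPM.

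The untreated CRC lines were compared with the untreated lines labelled normal to ask how the chain differs between them. Across 19964 genes, edgeR called 0 (0%) and 0 of the 13 mitochondrial and 82 nuclear members tested, and 542 genes (2.71%) but 0 members had an unadjusted p under 0.05. DESeq2 called 143 genes and 0 members. The mitochondrial share of counts was 2.26% in the library labelled NCM460 and 1.08% in HIEC6, and 1.93% to 2.71% in the CRC lines (exact permutation p = 0.3). The nuclear share was 0.794% and 0.895%, and 0.744% to 0.805% in the CRC lines (exact permutation p = 0.3, where 0.1 is the smallest value 3 lines against 2 allow).

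Which normal line was used decided these values. The median log2 fold change of the mitochondrial members was 0.22 over all 5 libraries, 0.91 without the library labelled NCM460 and -0.18 without HIEC6. That of the nuclear members was -0.25, -0.45 and 0.01, in the same order, beside 0.00 for all genes over the 5 libraries. Set against HIEC6 alone, all 3 CRC lines were higher in 12 of 13 mitochondrial messengers (34% of all genes) and lower in 48 of 82 nuclear members (58.5%, against 29.8%). HIEC6 was also the library with the highest sum of mesenchymal markers, whose part in this difference was not tested.

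Per library, COX1 had 5848 CPM in the library labelled NCM460 and 3215 in HIEC6, below the 6768 to 8904 CPM of the CRC lines. Its log2 fold change was 0.61 (adjusted p = 0.999, edgeR). After TMM normalization, COX1 and ND5 (2 of 13) had all CRC lines above both normal lines, as did 9.24% of all genes. The opposite held for 0 of 13, against 7.83% of all genes. ND6 had 1271 and 901 CPM in the normal group and 1307 in HCT116, against 259 in DLD1 and 415 in HCT8, so that HCT116 lay with the normal group and the other CRC lines below it.

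Of the nuclear members, 13 (15.9%) had all CRC lines below both normal lines after TMM normalization, against 7.83% of all genes, and 2 (2.44%, against 9.24%) had them above, ATP5C1 and NDUFA7. COX7B, a small subunit of complex IV, had 188 CPM in HIEC6, 45.8 in the library labelled NCM460 and 47.4 to 58.3 in the CRC lines, so that its log2 fold change of -1.40 (adjusted p = 0.999, edgeR) rested on HIEC6 and was 0.09 without it. SDHA had 434 CPM in HIEC6 and 165 to 229 CPM in the other 4, and its fold change of -0.91 was 0.06 without HIEC6. NDUFC2 was lower with either normal line left out (-1.33 and -0.41), with 43.6 and 73.9 CPM in the normal group and 31.4 to 37.0 in the CRC lines. Among nuclear members with a mean log2 CPM above 1, NDUFS5 (-1.16), NDUFS6 (-1.02) and ATP5G1 (-0.98) came next to COX7B, and ATP5E, below that level, had -1.21. On the positive side, above the same level, stood ATP5S (0.42), NDUFA7 (0.40), ATP5C1 (0.38), COX7A2L (0.28), NDUFC1 (0.27) and NDUFA5 (0.25), none of which had an unadjusted p under 0.05 in edgeR. Without the library labelled NCM460, HIEC6 was the only normal library. The log2 fold changes of NDUFS5, NDUFS6 and ATP5G1 were then -1.63, -1.66 and -1.51, while those of ATP5A1 (1.02) and ND4 (1.08) were above 0.

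The untreated CRC lines were also compared by the chromosome of the subunit genes. The nuclear members on chromosome 8 are COX6C, NDUFB9, CYC1 and UQCRB. In HCT116 they were above the geometric mean of DLD1 and HCT8 by a median of 0.77 on the log2 scale of CPM (n = 4), beside 0.04 over the 79 members with at least 10 counts in each of these libraries. CYC1 had 322 CPM in HCT116 and 175 and 167 CPM in DLD1 and HCT8, and NDUFB9 had 144 CPM in HCT116 and 75.3 and 79.7 CPM. The library labelled NCM460 had the same elevation, with a median of 0.82 for these 4 genes, 336 CPM of CYC1 and 151 CPM of NDUFB9, while HIEC6 had 200.5 and 68.0 CPM. The members on chromosome 14 (n = 2, ATP5S and NDUFB1) lay further off in the other direction, with a median of -1.02 in HCT116 and -1.64 in the library labelled NCM460. The medians of the other chromosomes lay between -0.18 and 0.55 in HCT116. This grouping by chromosome was made after the values were seen and carries no test.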

How the data were processed

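Total RNA of 8 libraries (5 human cell lines, 3 of them also under hypoxia) had been depleted of ribosomal RNA and sequenced. The authors deposited 1 table of raw read counts per gene, with 54261 genes and 1 column per library. The study's methods name GRCh37.p13, and the submitters' processing notes list HISAT2 2.0.4 and GRCh38. The counting tool, its use of strand and its treatment of reads with several positions are not given in the sources used here. Total counts ran from 45519306 to 57374239 per library, so that counting error was small beside the difference between lines, and intervals cover counting error only. The p-values of the fits rest on the spread between different cell lines, moderated with that of the other genes. In the fits blocked on the line, that is the spread of the response to hypoxia between lines, moderated likewise. The edgeR standard errors are the log2 fold change over the square root of the F statistic, not a gene's own spread. For NDUFB6 the SD of the 3 line differences was 0.11, beside a standard error of 0.20.

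From these counts, genes with 10 counts or more in 2 or more libraries of a comparison were tested with edgeR 4.0.16 (TMM, quasi-likelihood, R 4.3.3), with Benjamini-Hochberg adjustment over all genes tested and a threshold of 0.05. The fit without a block was the first choice for hypoxia against untreated CRC lines and for untreated CRC against normal lines. In hypoxia, the replicate number marks the cell line. Deviations from the group means correlated at 0.865 to 0.873 between libraries of the same line and at -0.620 to -0.098 between different lines, so a fit blocked on the line was run as well. DESeq2 1.42.0, limma 3.58.1 (limma-trend), other filters and library sizes, and leaving out each library were alternatives. The edgeR fits were also run on simulated data. Those data had no difference between lines and less spread than the fits without the block had here. They therefore cannot show how these fits perform on the real libraries. Summed shares were compared by two-sided exact permutation tests of the log2 values over samples. For hypoxia, the permutation p-values given treat the libraries as independent and ignore their pairing by line. Differences of single genes within a line used TMM-normalized CPM without an offset. Medians, ranges and shares over the genes tested, and the gaps of single genes flagged below, used an offset of 0.02 CPM. Members and gene lists were chosen with earlier results of these data known. By rule, the genes named were the 13 mitochondrial messengers, tissue or hypoxia isoforms with their common forms, SDHA to SDHD and CYC1, the nuclear members with the 6 largest fold changes in each direction of each comparison (edgeR without the block, mean log2 CPM above 1), the highest and lowest member of each complex, and from each other list the genes past the threshold and those of largest change. Other genes, among them those called by DESeq2, those whose groups did not overlap, those on chromosome 8 and TFAM, TFB2M and POLRMT, were chosen after their values were seen.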

Additional observations from a re-analysis of the deposited data

Results flagged for a closer look

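The response to hypoxia had opposite signs in different CRC lines for 6 members and for the sum of the mitochondrial messengers, by at least 0.5 on the log2 scale (TMM-normalized CPM) in each direction. Each line has 1 library per condition, so these differences were not tested. For the summed mitochondrial messengers, HCT116 (1.04) and HCT8 (-0.52) lay 1.57 apart. The gap from HCT116 to HCT8 was 2.67 for CYTB (0.85 and -1.82), 2.13 for ND4L (1.45 and -0.68), 2.0 for COX2 (1.44 and -0.57), 1.85 for ATP6 (1.02 and -0.84) and 1.68 for COX3 (0.99 and -0.69). For ATP5J2, a subunit of the ATP synthase, DLD1 (0.78) and HCT116 (-0.53) lay 1.30 apart. The HCT116 hypoxia library also had the lowest TMM factor, 0.771, and its part in these gaps was not tested.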

How the results depend on the processing

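For hypoxia, edgeR without the block called 0 genes, and limma-trend called 0. DESeq2 called 55 genes without and 1666 with the replicate block, and edgeR with the block called 200, or 212 with library sizes that leave out the mitochondrial genes. With 1 line left out of the blocked fit, it called 292 genes (without DLD1), 738 (without HCT116) and 6 (without HCT8). Members called were 4 in DESeq2 with the block, 1 in the blocked fit without DLD1 and 0 in the other fits. For CRC against normal lines, edgeR called 0 and DESeq2 143 genes.

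The median log2 fold change of the mitochondrial members under hypoxia was -0.50 in the blocked fit without HCT116, and from -0.62 to 0.77 with 1 library left out, when the nuclear median ranged from -0.27 to -0.056. In CRC against normal lines the same ranges were -0.18 to 0.91 and -0.45 to 0.0051, and a block on the replicate number, which pairs different lines there, gave 0.36 and -0.20. With 1 library left out, the log2 difference in share under hypoxia ranged from -0.32 to 0.39 for the mitochondrial messengers and from -0.37 to -0.17 for the nuclear members, and in CRC from 0.04 to 1.11 and from -0.21 to -0.04. Where 1 normal library was left, it was assumed to vary like the CRC lines.

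Under hypoxia CYTB turned to -0.35 (limma-trend), -0.34 (replicate block, also with library sizes without the mitochondrial genes) and -0.31 (the block in DESeq2), and ATP8 to 0.0006 in DESeq2. In CRC, DESeq2 turned ND3 to -0.0029 and ND4L to -0.0037. With 1 library left out, these hypoxia fold changes crossed 0: ATP5J2 (-0.12 to 0.50), ATP6 (-0.75 to 0.92), ATP8 (-0.91 to 0.34), COX1 (-0.12 to 0.77), COX2 (-0.40 to 1.29), COX3 (-0.55 to 0.83), CYTB (-0.98 to 0.63), ND3 (-0.64 to 0.075), ND4 (-0.16 to 1.11), ND4L (-0.51 to 0.81) and NDUFB4 (-0.028 to 0.57). So did these in CRC: ATP5S (-0.23 to 1.63), ATP6 (-0.50 to 1.08), ATP8 (-0.13 to 0.91), COX2 (-0.29 to 1.03), COX3 (-0.19 to 1.18), COX7B (-2.11 to 0.085), ND1 (-0.045 to 0.31), ND2 (-0.088 to 0.58), ND3 (-0.41 to 0.63), ND4 (-0.18 to 1.08), ND4L (-0.36 to 0.55), NDUFS6 (-1.66 to 0.17) and SDHA (-1.48 to 0.065). The cause of these changes was not tested. Each line has 1 library per condition, and calls at other depths were not compared.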
